A study of Arabidopsis thaliana with 16 samples.

Results

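IPS1, AT4, PHO2 and the microRNA precursors MIR399D, MIR399F and MIR827 form a module of phosphate signalling in Arabidopsis thaliana, and their reads were followed through roots and leaves of plants that differ at PHO1. The members are the rows of 6 locus identifiers among the 32678 loci counted in every library: AT3G09922 (IPS1), AT5G03545 (AT4), AT2G33770 (PHO2), AT2G34202 (MIR399D), AT2G34208 (MIR399F) and AT3G59884 (MIR827). All 6 were present in all 16 count tables. The plants were 25 days old, had been raised on Oil-Dri pellets fed with Hoagland nutrients, and were given no treatment. KO is the pho1-4 knockout mutant, Compl is the mutant complemented with the PHO1 gene, and EXS32 and EXS34 are mutant lines that carry a GFP fusion of the EXS domain of PHO1. All 4 groups are therefore in the pho1 background, no wild type is among the groups, and EXS32 and EXS34 are each 1 transgenic line. Each genotype had 2 libraries of roots and 2 of leaves. Since separate plants behind the 2 libraries of a group are not stated in the labels, p-values reflect the spread between libraries only, which may be technical.

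PHO1 exports phosphate from root cells into the xylem, and loss of PHO1 leaves shoots short of phosphate. When phosphate is short, the transcription factor PHR1 activates MIR399 genes, IPS1 and AT4. The microRNA miR399 moves from shoots to roots and cleaves the transcript of PHO2, a ubiquitin-conjugating enzyme that promotes the breakdown of PHO1 and of the PHT1 uptake transporters. IPS1 and AT4 are target mimics, transcripts that bind miR399 without being cut because the pairing is broken by a bulge, and so spare PHO2. The microRNA miR827 acts on NLA, a ubiquitin ligase that also lowers PHT1 transporters at the plasma membrane.

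The leaf libraries carry conflicting names. Every root library has the same genotype in its label and in its file name. In leaves, the libraries labelled KO are in files named for Compl, those labelled Compl in files named EXS32, those labelled EXS32 in files named EXS34, and those labelled EXS34 in files named for pho1-4. Both naming schemes put the same libraries together, so the 6 differences between leaf groups are the same numbers under either, and each leaf group is given below with both names. Which genotype a leaf group has depends on the scheme, and with it any statement that sets a leaf genotype beside the same root genotype. PHO1 itself, which should check the genotypes, was counted in all groups at 1184 to 2379 CPM in roots and 56 to 133 CPM in leaves, and no library lacked it. A read count cannot show whether a mutant transcript is functional, and reads of the EXS-GFP transgene fall on the same locus.

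Depth was 20139794 to 31405117 reads in genes for root libraries and 9465995 to 15530134 for leaf libraries. Levels are CPM, read counts scaled to a common library size with TMM factors of all 16 libraries. The summed level of 6 leaf markers was 52.8 to 237 CPM in roots and 53657 to 63625 CPM in leaves, and that of 6 root markers was 321 to 567 CPM in roots and 0.538 to 2.12 CPM in leaves. The leaf markers CA1 and RBCS2B were at or near 0 in roots. Among root libraries the summed leaf markers were highest in EXS34 (202 and 237 CPM) and the summed root markers were highest in Compl (567 and 422 CPM, against 321 to 400 CPM in the others). Among root libraries Compl replicate 1 stood apart, at 68.30 on the first principal component (40.9% of the variance), with Compl replicate 2 at 31.82 and the 6 remaining root libraries at -44.68 to 8.89. A change in a level cannot be told apart from a change in the share of the cells that make the transcript.

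The sequences below show why IPS1 and AT4 belong with miR399 and PHO2. They were read from the TAIR10.1 genome with RefSeq's annotation, since the files hold none; TAIR10 and TAIR10.1 carry the same nuclear sequences. The mature microRNAs encoded by the members are given 5′ to 3′ with the seed, bases 2 to 8, in capitals, and miR399b is added because it has the most pairs with the mimics.
miR399d: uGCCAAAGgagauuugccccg
miR399f: uGCCAAAGgagauuugcccgg
miR399b: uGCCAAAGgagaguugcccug
miR827: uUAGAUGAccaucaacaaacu

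The miR399 sequences shown share the seed and differ in only a few of the other bases, whereas miR827 has another seed. The mature forms of MIR399B and MIR399C are identical, so that the 6 MIR399 loci encode 5 distinct main products. The best sites found in the transcripts follow, with bases that form Watson-Crick pairs with the named microRNA in capitals and all others, bulged bases included, in lower case.
IPS1 site for miR399b: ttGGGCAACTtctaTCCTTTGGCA
AT4 site for miR399b: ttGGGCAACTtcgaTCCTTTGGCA
PHO2 site for miR399f: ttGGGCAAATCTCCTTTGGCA
PHO2 site for miR399a: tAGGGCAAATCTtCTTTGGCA
NLA site for miR827: tGTTTGTTGATGGTCATCTAA

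The IPS1 site lies at chr3:3051224-3051247 (plus strand) and the AT4 site at chr5:895149-895172 (plus strand). Each has 18 Watson-Crick pairs and 3 unpaired bases in the middle, the bulge of a target mimic. The PHO2 sites shown lie at chr2:14281884-14281904 and chr2:14282106-14282126 (minus strand) and have 19 such pairs and no bulge. PHO2 held 5 sites of this kind, all in exonic sequence 5′ of the coding part. The NLA site, at chr1:635401-635421 (plus strand), has 20 pairs with miR827. IPS1 and AT4 share a run of at most 44 identical bases, which begins inside the site.

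IPS1 is annotated at chr3:3050989-3051530 (plus strand), as 1 exon of 542 bases, and AT4 at chr5:894582-895517 (plus strand), as 1 exon of 936 bases. RefSeq lists both as protein-coding with a short reading frame that holds the miR399 site. PHO2 lies at chr2:14277558-14283113 (minus strand) with 9 exons of 4176 bases in all, and ends 6 bases from AT2G33760 on the other strand. MIR399D is at chr2:14442978-14443077 (minus strand), MIR399F at chr2:14444997-14445114 (plus strand) and MIR827 at chr3:22122760-22122936 (minus strand). The counted features of these 3 loci are the annotated hairpins, of 100, 118 and 177 bases, so reads on other stretches of their primary transcripts were not counted. No member overlaps another annotated locus. The libraries were made from messenger RNA with a stranded kit, and mature microRNAs of 21 bases are not measured by them.

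PHR1 binds the palindrome GNATATNC, searched here in the bases before each annotated start. Windows of 60 bases that hold matches, in capitals, are shown for 4 members.
AT4: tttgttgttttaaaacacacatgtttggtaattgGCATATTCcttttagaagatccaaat
IPS1: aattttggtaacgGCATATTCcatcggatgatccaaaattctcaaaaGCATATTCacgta
MIR399F: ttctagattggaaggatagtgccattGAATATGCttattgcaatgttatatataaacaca
MIR827: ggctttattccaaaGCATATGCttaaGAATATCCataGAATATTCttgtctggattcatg

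The AT4 window is chr5:894522-894581 (plus strand), with the match starting 26 bases before the gene. The IPS1 window is chr3:3050394-3050453 (plus strand), with matches 582 and 548 bases before the gene. The MIR399F window is chr2:14444887-14444946 (plus strand), with its match 84 bases before the hairpin. The MIR827 window is chr3:22122987-22123046 (minus strand), with matches 96, 84 and 73 bases before the hairpin. All 6 members had at least 1 match within 1000 bases: AT4, IPS1 and MIR399D had 2 each, PHO2 had 1, and MIR399F and MIR827 had 3 each. Of 31911 annotated loci, 19.7% had a match within 1000 bases and 6.29% within 300 bases. A match is a run of letters and not a binding site shown in these plants, and a hairpin's start is not a transcription start.

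In roots, IPS1 was low in Compl and high in the 3 other genotypes. Its reads were 1485 and 2706 in KO (42.9 and 69.1 CPM), 89 and 27 in Compl (3.84 and 1.01 CPM), 1154 and 1454 in EXS32 (43.4 and 49.6 CPM), and 690 and 2214 in EXS34 (24.5 and 70.3 CPM). Both Compl libraries lay below every other root library, while KO, EXS32 and EXS34 overlapped. Both also lay apart from the other root libraries on the first principal component. The share of all genes with both Compl libraries at an extreme was not counted, which holds for AT4 and PHO2 below too. The mean IPS1 level in KO was 56.0 ± 18.5 CPM, that in Compl 2.42 ± 2.00, that in EXS32 46.5 ± 4.38 and that in EXS34 47.4 ± 32.4 (SD, n = 2 each).

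AT4 had the same order of genotypes in roots with smaller steps. Its reads were 16817 and 29229 in KO (486 and 746 CPM), 6032 and 7887 in Compl (260 and 296 CPM), 11878 and 13409 in EXS32 (446 and 457 CPM), and 11750 and 16105 in EXS34 (417 and 511 CPM). The Compl libraries were again the lowest of the 8 and did not overlap the others. Mean AT4 in KO was 616 ± 184 CPM, against 278 ± 25.6 in Compl, 452 ± 7.58 in EXS32 and 464 ± 66.6 in EXS34 (SD, n = 2 each).

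PHO2, the transcript that miR399 cleaves, lay the other way round in roots. Its reads were 2886 and 4257 in KO (83.3 and 109 CPM), 10136 and 16099 in Compl (437 and 604 CPM), 3147 and 2598 in EXS32 (118 and 88.6 CPM), and 9579 and 4106 in EXS34 (340 and 130 CPM). Compl was highest in both libraries, KO and EXS32 overlapped at the low end, and the EXS34 libraries were far apart. Mean PHO2 in KO was 96.0 ± 17.9 CPM, against 521 ± 119 in Compl, 103 ± 21.0 in EXS32 and 235 ± 148 in EXS34 (SD, n = 2 each).

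**Figure D1:**
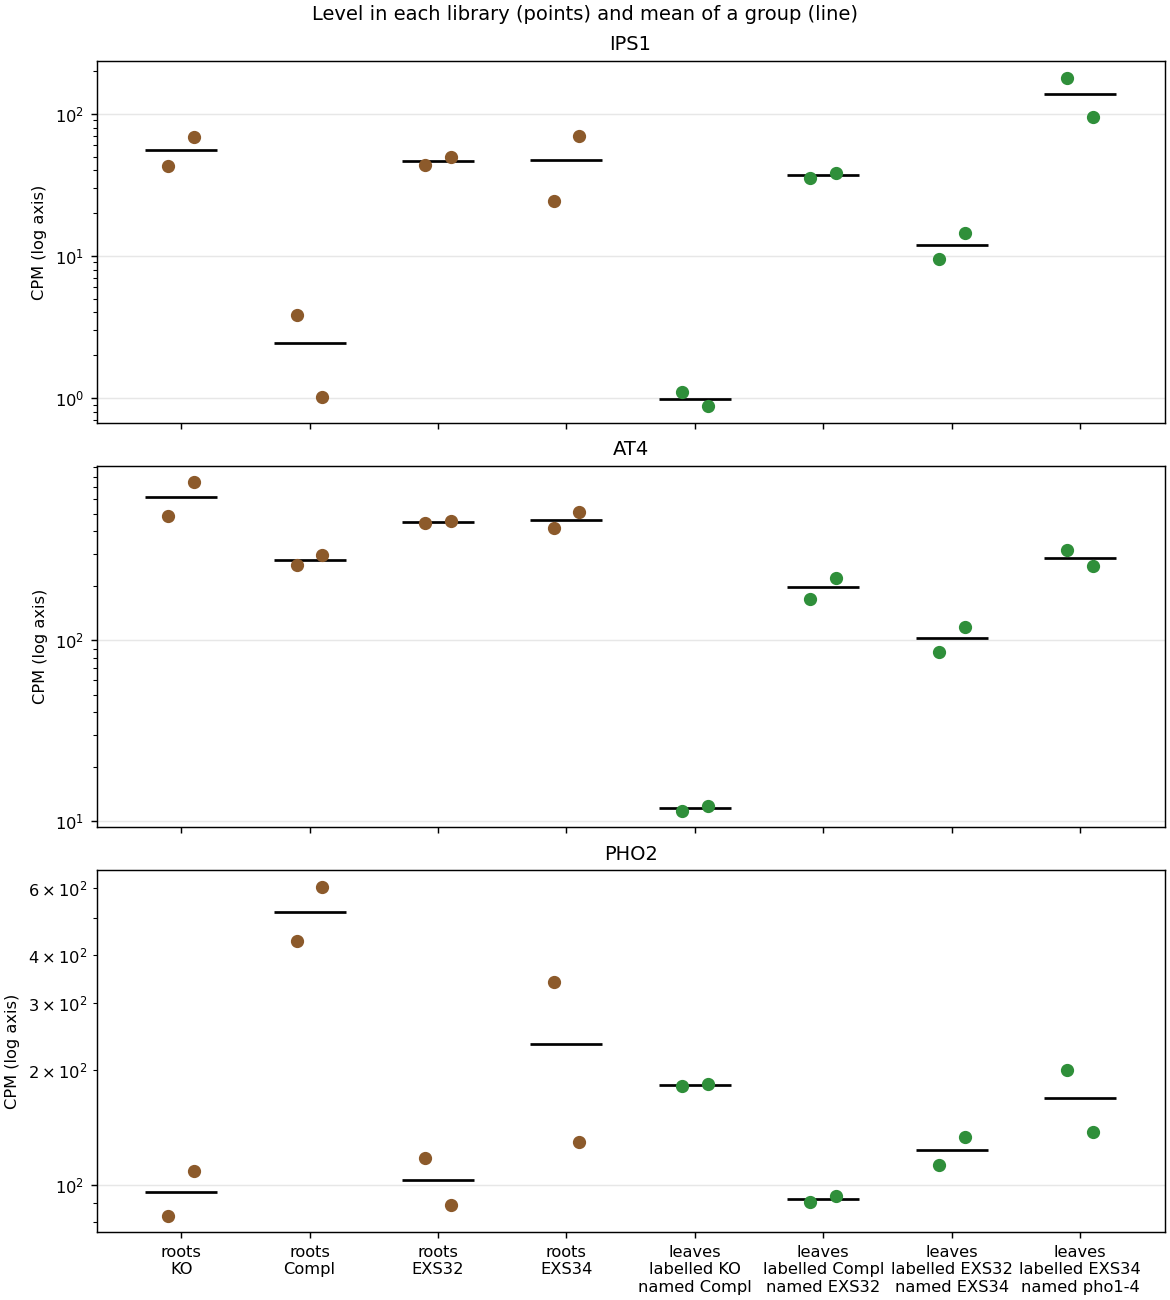
Level of IPS1, AT4 and PHO2 in each of the 16 libraries, in CPM on a log axis; points are libraries (brown, roots; green, leaves), replicate 1 left of replicate 2, and lines are group means. The 2 root Compl libraries have the lowest root levels of IPS1 and AT4 and the highest of PHO2, and the leaf libraries labelled KO (named Compl) have the lowest leaf levels of both mimics.

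The 6 genotype pairs ask whether loss of PHO1, its complementation or the EXS domain alone changes the module. Each pair was tested with edgeR's quasi-likelihood test over 20597 genes in roots, with Benjamini-Hochberg adjustment and a threshold of 0.05. A gene past the threshold is said below to be called. IPS1, AT4 and PHO2 passed the filter on low counts in each organ, and the 3 precursors did not.

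Between root KO and Compl, IPS1 was higher in KO by a log2 fold change of 4.55 ± 0.69 (SE; edgeR adjusted p = 0.045). The AT4 difference was 1.14 ± 0.22 (adjusted p = 0.0666) and that of PHO2 -2.45 ± 0.44 (adjusted p = 0.0608), neither of them called by edgeR. Thus 1 of the 3 tested members was called, in a contrast where 0.884% of all genes were. The IPS1 call held in 5 of 13 alternatives. It was lost without KO replicate 1 (edgeR adjusted p = 0.14), KO replicate 2 (0.195), Compl replicate 1 (0.0846), which stood apart, EXS32 replicate 1 (0.105) or EXS32 replicate 2 (0.106), and also with no filter (0.0808) and with only the groups compared (0.143). DESeq2 called all 3 members in this pair, beside 5.97% of genes. None of the 10 markers tested in roots was called here.

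Between root EXS32 and Compl, IPS1 was higher by 4.28 ± 0.69 (adjusted p = 0.0127) and PHO2 lower by a log2 fold change of -2.34 ± 0.44 (edgeR adjusted p = 0.02). AT4, at 0.69 ± 0.22, was not called (adjusted p = 0.0764). The 2 calls among 3 tested members stand beside 12.4% of all genes. Both were lost without EXS32 replicate 1 (edgeR adjusted p = 0.0632 for IPS1 and 0.1 for PHO2) or replicate 2 (0.0821 and 0.147). In this pair 3 of the 10 tested markers were called too: the root markers PRP3 (-0.83 ± 0.17, edgeR adjusted p = 0.0248) and WER (0.83 ± 0.14, 0.0134) and the leaf marker LHCA1 (1.04 ± 0.26, 0.044). Their part in the result was not tested.

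Between root EXS34 and Compl no member was called by edgeR, in a contrast with 0.131% of genes called, although all 3 had an unadjusted p under 0.05 and DESeq2 called 2, beside 3.02% of genes. The IPS1 difference was 4.31 ± 0.69 (adjusted p = 0.0823), close in size to that of the other lines. AT4 differed by 0.73 ± 0.22 (adjusted p = 0.22) and PHO2 by -1.16 ± 0.43 (adjusted p = 0.294). No marker was called by edgeR in this pair, with the leaf marker RBCS1A at 2.17 ± 0.36 (adjusted p = 0.0838) and the root marker PRP3 at -1.21 ± 0.17 (0.0636), and their part in the result was not tested.

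No member was called between KO, EXS32 and EXS34 in roots, by edgeR or by DESeq2. EXS32 and KO differed by -0.27 ± 0.56 for IPS1, -0.45 ± 0.21 for AT4 and 0.11 ± 0.42 for PHO2 on the log2 scale, with 0.126% of genes called (2.63% by DESeq2) and none of the 3 members under an unadjusted p of 0.05. EXS34 and KO differed by -0.24 ± 0.55 for IPS1, -0.41 ± 0.21 for AT4 and 1.29 ± 0.43 for PHO2, with 0% of genes called by edgeR (1871 genes at an unadjusted p under 0.05, and 97, or 0.399%, called by DESeq2). EXS34 and EXS32 differed by 0.03 ± 0.56 for IPS1, 0.04 ± 0.21 for AT4 and 1.18 ± 0.43 for PHO2, with 0.908% called (5.12% by DESeq2). PHO2 was the member with an unadjusted p under 0.05 in both EXS34 comparisons (0.0185 against KO and 0.0268 against EXS32). With standard errors of up to 0.56 on the log2 scale, a miss of the threshold does not show that these 3 genotypes are alike.

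The EXS34 root libraries differed from each other in both IPS1 and PHO2. Replicate 1 had the lower IPS1 (24.5 against 70.3 CPM) and the higher PHO2 (340 against 130 CPM). In Compl and EXS32 too, the library with less IPS1 had more PHO2, while in KO replicate 2 had more of both. The cause of the spread within EXS34 was not tested.

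**Figure D2:**
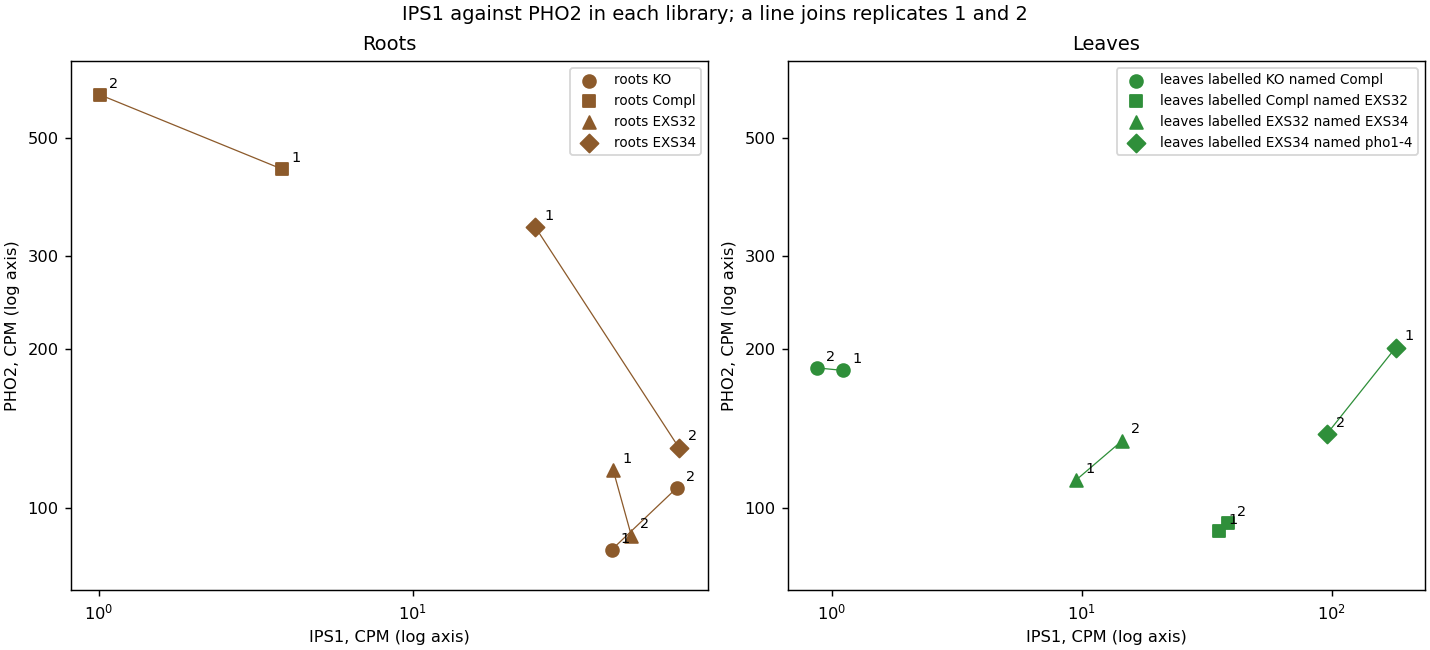
IPS1 against PHO2 in each library, both in CPM on log axes, for roots (left) and leaves (right); numbers mark replicates 1 and 2 and a line joins them. In roots the Compl libraries combine 1.01 to 3.84 CPM of IPS1 with 437 to 604 CPM of PHO2, whereas leaf PHO2 spans 90.5 to 201 CPM while IPS1 spans 0.874 to 180 CPM.

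In leaves, the IPS1 levels of the 4 groups did not overlap. Its reads were 14 and 10 in the libraries labelled KO (named Compl; 1.11 and 0.874 CPM), 332 and 298 in those labelled Compl (named EXS32; 35.5 and 38.4 CPM), 81 and 135 in those labelled EXS32 (named EXS34; 9.51 and 14.5 CPM), and 1860 and 793 in those labelled EXS34 (named pho1-4; 180 and 95.6 CPM). How many other genes keep the 4 leaf groups apart in this way was not counted. The IPS1 level averaged 0.992 ± 0.168, 36.9 ± 2.05, 12.0 ± 3.54 and 138 ± 59.4 CPM in that order (SD, n = 2 each).

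AT4 ranked the leaf groups as IPS1 did. Its reads were 144 and 140 in the libraries labelled KO (named Compl; 11.4 and 12.2 CPM), 1594 and 1723 in those labelled Compl (named EXS32; 170 and 222 CPM), 734 and 1102 in those labelled EXS32 (named EXS34; 86.2 and 119 CPM), and 3270 and 2121 in those labelled EXS34 (named pho1-4; 316 and 256 CPM). Again no group overlapped another, and the share of all genes with such a separation was not counted. The AT4 level averaged 11.8 ± 0.565, 196 ± 36.4, 102 ± 22.8 and 286 ± 42.4 CPM in that order (SD, n = 2 each).

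PHO2 varied less in leaves and ranked the groups otherwise. Its reads were 2295 and 2110 in the libraries labelled KO (named Compl; 182 and 184 CPM), 847 and 727 in those labelled Compl (named EXS32; 90.5 and 93.6 CPM), 964 and 1245 in those labelled EXS32 (named EXS34; 113 and 134 CPM), and 2081 and 1143 in those labelled EXS34 (named pho1-4; 201 and 138 CPM). The group with the least IPS1 and the group with the most overlapped in PHO2. The PHO2 level averaged 183 ± 1.52, 92.1 ± 2.19, 124 ± 14.6 and 169 ± 44.6 CPM in that order (SD, n = 2 each).

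The leaf pairs were tested over 18548 genes. The group labelled KO (named Compl) was below the group labelled Compl (named EXS32) in IPS1, with a log2 fold change of -5.20 ± 0.52 (edgeR adjusted p = 0.00171), and in AT4, at -4.06 ± 0.23 (adjusted p = 5.53e-05). PHO2 was higher there by 0.99 ± 0.17 (edgeR adjusted p = 0.0052). All 3 tested members were called, in a contrast with 21.1% of genes called, and all 3 calls held in each of 13 alternatives. The 6 leaf markers were called too, in both directions. LHCA1 (-1.22 ± 0.07, edgeR adjusted p = 2.41e-05) and LHCB1.3 (-0.39 ± 0.08, 0.009) were lower. CA1 (0.53 ± 0.07, 0.000988), RBCS2B (0.38 ± 0.08, 0.0085), RBCS1A (0.30 ± 0.08, 0.0266) and RCA (0.28 ± 0.07, 0.0203) were higher. Leaf markers were also called in the pairs labelled EXS32 and Compl, EXS34 and Compl, EXS32 and KO, and EXS34 and KO. Their part in the results was not tested.

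The group labelled EXS34 (named pho1-4) stood above the group labelled KO (named Compl) by a log2 fold change of 7.10 ± 0.49 in IPS1 (edgeR adjusted p = 0.0024) and of 4.60 ± 0.23 in AT4 (adjusted p = 0.000449). These were the largest differences of both mimics among the 12 genotype pairs. PHO2 differed by -0.11 ± 0.16 (adjusted p = 0.747). Here 2 of 3 members were called beside 6.41% of genes, and both calls held in each of 13 alternatives.

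The group labelled EXS34 (named pho1-4) was also above the group labelled Compl (named EXS32) in IPS1, by 1.90 ± 0.33 (edgeR adjusted p = 0.0145), and in PHO2, by 0.88 ± 0.17 (adjusted p = 0.0107). AT4 differed by 0.54 ± 0.19 and was not called (adjusted p = 0.0864). The 2 calls stand beside 18.3% of genes. Both were lost without replicate 1 of the group labelled Compl (edgeR adjusted p = 0.0814 for IPS1 and 0.0793 for PHO2) or without its replicate 2 (0.0795 and 0.0727).

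The group labelled EXS32 (named EXS34) lay between the others in both mimics. It was below the group labelled Compl (named EXS32) by a log2 fold change of -1.60 ± 0.37 in IPS1 (edgeR adjusted p = 0.0392) and -0.93 ± 0.19 in AT4 (adjusted p = 0.0182), with PHO2 at 0.43 ± 0.17 not called (adjusted p = 0.126), beside 14.8% of genes. It was above the group labelled KO (named Compl) by 3.60 ± 0.58 in IPS1 (adjusted p = 0.0272) and 3.13 ± 0.22 in AT4 (adjusted p = 0.00137), with PHO2 at -0.55 ± 0.17 not called (adjusted p = 0.0911), beside 5.93% of genes. The group labelled EXS34 (named pho1-4) was above it by 3.50 ± 0.36 in IPS1 and 1.47 ± 0.19 in AT4 (edgeR adjusted p = 0.00952 for each), with PHO2 at 0.45 ± 0.17 not called (adjusted p = 0.161), beside 5.69% of genes.

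Several of these calls were lost when 1 library was left out, which also leaves fewer libraries to estimate the spread. Without either library labelled KO, outside the pair, the IPS1 difference between the groups labelled EXS32 and Compl stayed at -1.59 and -1.60. The IPS1 call between the groups labelled EXS32 and Compl held in 5 of 13 alternatives. It was lost when any 1 of their 4 libraries was left out (edgeR adjusted p = 0.0754 to 0.163), without either library labelled KO (0.0836 and 0.0778) and with no filter (0.0741). The IPS1 call between the groups labelled EXS32 and KO was lost without any 1 of their 4 libraries (0.0585 to 0.179). The AT4 call between the groups labelled EXS32 and Compl was lost without Compl replicate 2 (0.0909) or EXS32 replicate 1 (0.078). The IPS1 call between the groups labelled EXS34 and EXS32 was lost without EXS32 replicate 1 (0.0626) and with only the groups compared (0.0678).

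**Figure D3:**
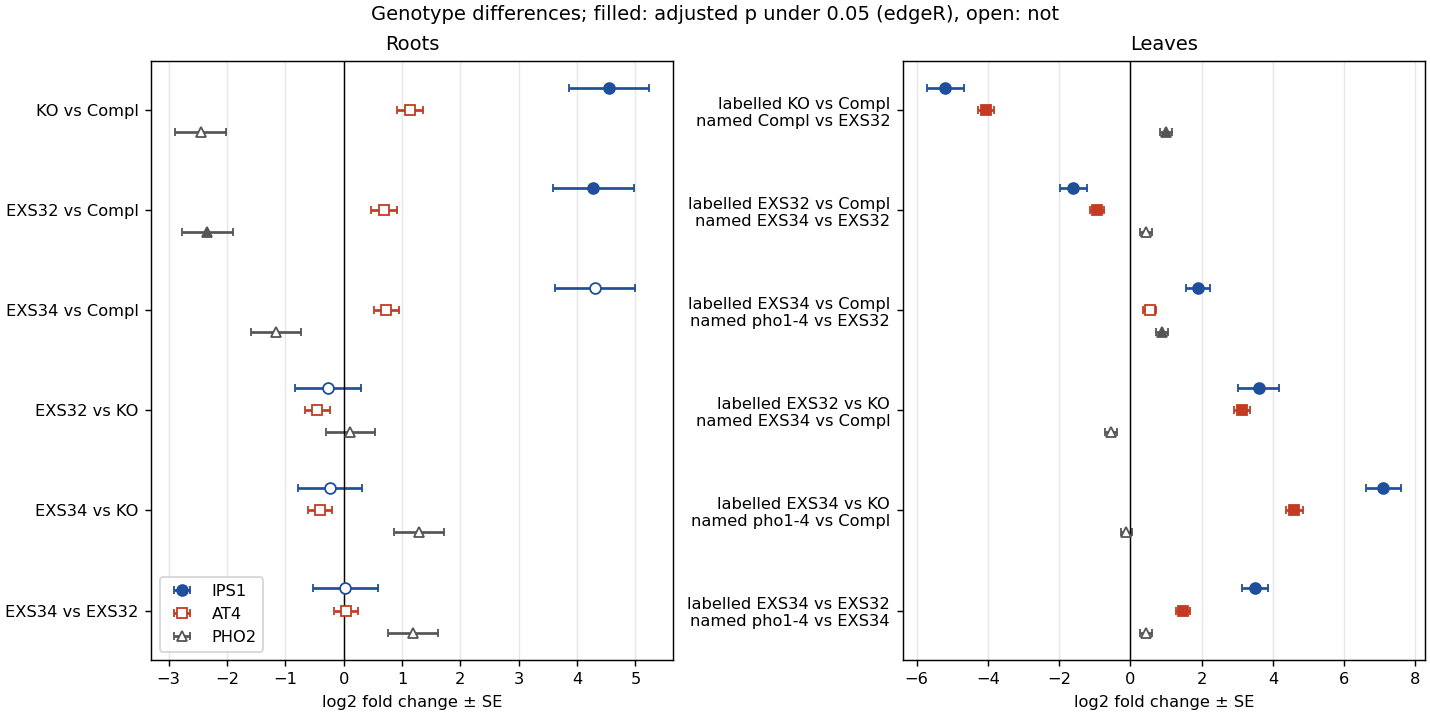
Log2 fold changes (± SE) of IPS1, AT4 and PHO2 for the 6 genotype pairs in roots (left) and in leaves (right, with both names of each leaf group); filled symbols have an edgeR adjusted p under 0.05. In leaves the largest IPS1 difference is 7.10 and that of AT4 4.60, while leaf PHO2 differences stay between -0.55 and 0.99.

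The precursors were at the limit of detection. MIR399D reads were 6 and 16 in root KO, 0 and 0 in root Compl, 0 and 5 in root EXS32, and 0 and 1 in root EXS34. In leaves they were 0 and 0 in the group labelled KO (named Compl), 2 and 6 in that labelled Compl (named EXS32), 0 and 1 in that labelled EXS32 (named EXS34), and 23 and 5 in that labelled EXS34 (named pho1-4). Both root KO libraries had more MIR399D reads than any other root library. Scaled for depth, however, KO replicate 1 was close to EXS32 replicate 2 (0.173 against 0.17 CPM). The leaf group with the most IPS1 had the most MIR399D reads.

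Per 10000000 reads, MIR399D stood at 3.68 in root KO (exact 95% Poisson interval 2.30 to 5.57) and at 12.5 in the leaf group labelled EXS34 (8.32 to 18.1). Values per 10000000 reads, here and below, are scaled by depth alone, without TMM factors. The 0 reads in root Compl allow up to 0.712 per 10000000, and the 0 reads in the leaf group labelled KO up to 1.02, taking 3 reads over the group as the floor; the exact 95% Poisson intervals of these groups reach 0.876 and 1.25. Against that floor, and with the reads of the higher group as counted, MIR399D was at least 5.16-fold higher in root KO than in root Compl, and at least 12.3-fold higher in the leaf group labelled EXS34 than in that labelled KO. These intervals and floors, and the Poisson intervals below, cover counting error only. They do not cover the spread between the libraries of a group, such as 23 and 5 MIR399D reads in the leaf group labelled EXS34. Without a filter on low counts the leaf difference had an edgeR adjusted p of 0.0178 and the root difference 0.191.

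MIR399F had 0 reads in all 16 libraries, out of 196710087 root and 94315548 leaf reads. Expression of its hairpin was therefore not detectable at this depth. Its neighbour MIR399E also had 0 reads throughout, and MIR399A had 1 read in all, in the leaf group labelled EXS34. MIR399B had 19 reads in roots and 8 in leaves, and MIR399C had 28 and 14. Over the 6 MIR399 loci the reads were 19 and 26 in root KO, 1 and 1 in root Compl, 4 and 14 in root EXS32, and 5 and 5 in root EXS34. In leaves their sum was 0 and 0 in the group labelled KO, 2 and 7 in that labelled Compl, 2 and 4 in that labelled EXS32, and 33 and 12 in that labelled EXS34. The leaf group labelled EXS34 (named pho1-4) had 20.1 such reads per 10000000 (exact 95% Poisson interval 14.7 to 26.9) and root KO had 7.52 (5.49 to 10.1). Root Compl had 0.475 (0.0575 to 1.72).

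MIR827 was even across the root genotypes. Its reads were 8 and 10 in KO, 5 and 7 in Compl, 7 and 5 in EXS32, and 6 and 8 in EXS34. In leaves they were 1 and 2 in the group labelled KO (named Compl), 0 and 1 in that labelled Compl (named EXS32), 1 and 1 in that labelled EXS32 (named EXS34), and 2 and 1 in that labelled EXS34 (named pho1-4). The root groups overlapped one another, and every root library had more reads than any leaf library, also because root libraries were deeper. Per 10000000 reads MIR827 stood at 2.85 in roots (exact 95% Poisson interval 2.15 to 3.70) and 0.954 in leaves (0.436 to 1.81). The TMM factors left out of these values were 1.153 to 1.247 in roots and 0.811 to 0.837 in leaves. With them the organ gap is smaller. Without a filter on low counts the organ difference was 1.08 ± 0.48 on the log2 scale and was not called (edgeR adjusted p = 0.0562).

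**Figure D4:**
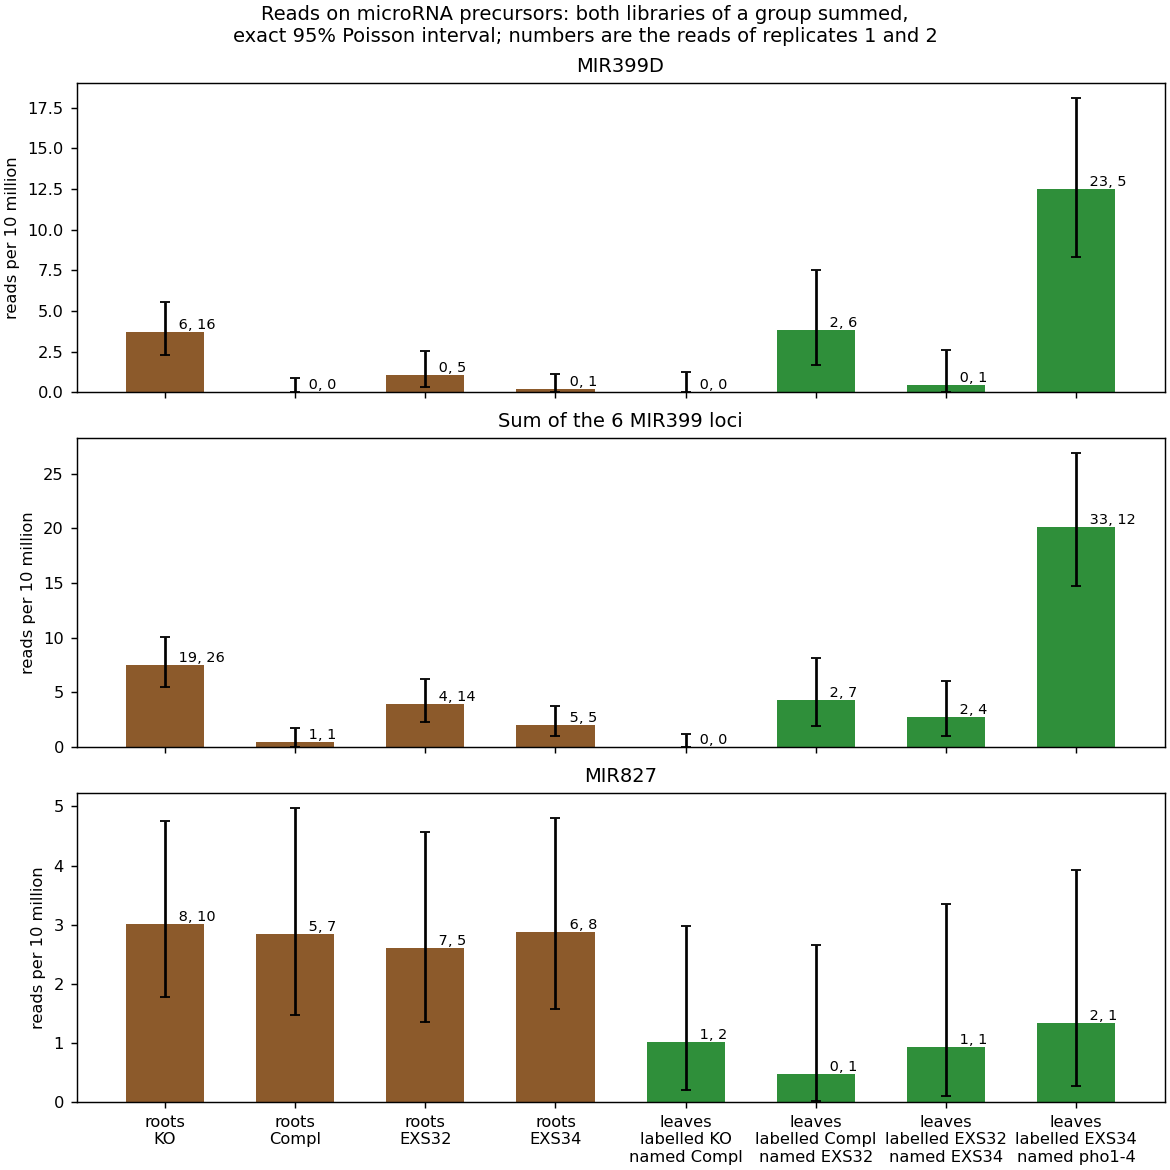
Reads per 10000000 on MIR399D, on the 6 MIR399 loci together and on MIR827, summed over the 2 libraries of a group, with the exact 95% Poisson interval; the numbers beside the bars are the reads of replicates 1 and 2. Root KO and the leaf libraries labelled EXS34 (named pho1-4) have the highest bars in the upper panels, and MIR827 lies between 2.61 and 3.01 in the 4 root groups.

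Over all genotypes, AT4 was the member that most favoured roots. Its level averaged 452 ± 148 CPM over the 8 root libraries and 149 ± 112 CPM over the 8 leaf libraries, with some overlap between the organs (260 to 746 CPM in roots, 11.4 to 316 in leaves). The difference of the group means was 2.26 ± 0.11 on the log2 scale (edgeR adjusted p = 8.26e-10). PHO2, at 239 ± 198 CPM in roots and 142 ± 42.7 CPM in leaves, was higher in roots by 0.45 ± 0.18 (adjusted p = 0.0378). That call was lost without a filter (edgeR adjusted p = 0.0576) and in 11 of 16 fits that left out 1 library.

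IPS1 averaged 38.1 ± 26.5 CPM in roots and 46.9 ± 61.9 CPM in leaves (SD, n = 8 each), so its mean level was higher in leaves. The fit, which averages log values of the groups, gave a difference of 0.56 ± 0.33 towards roots that was not called (edgeR adjusted p = 0.135). The organ test ran over 21351 genes, of which 81.6% were called, and called AT4 and PHO2 among the 4 members that passed its filter, MIR399D being the fourth. With library size in place of TMM, the median difference of all genes moved from 0.06 to 0.62, and the differences became 2.82 for AT4, 1.01 for PHO2 and 1.12 for IPS1 (edgeR adjusted p = 0.00618 for IPS1), so the organ differences depend on the scaling. Per kilobase of exon, the mean level in roots was 483 CPM for AT4, 70.2 for IPS1 and 57.2 for PHO2, and in leaves 159, 86.5 and 34.0 CPM.

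Set in order over all 8 groups, mean IPS1 was highest in the leaf group labelled EXS34 (138 CPM), which did not overlap the next, followed by root KO, root EXS34 and root EXS32, which overlapped in that order. The leaf group labelled Compl, the leaf group labelled EXS32, root Compl and the leaf group labelled KO followed, and the last 2 overlapped. For AT4 the 3 root groups KO, EXS34 and EXS32 came first and overlapped, and the leaf group labelled EXS34 and root Compl, which overlapped, came next. The leaf groups labelled Compl, EXS32 and KO closed the AT4 order without overlap. For PHO2 root Compl was alone at the top, and from root EXS34 (235 CPM) down to the leaf group labelled Compl (92.1 CPM) most neighbours overlapped.

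Under the file names, Compl had the least IPS1 and AT4 in both organs. The highest mean of both mimics was then in pho1-4 in both organs, although root KO overlapped root EXS34. Under the labels, Compl had the least of both mimics in roots and KO the least in leaves. Whether a genotype difference depended on the organ was tested as an interaction, the log2 difference in roots minus that in leaves. With leaf groups by label, KO against Compl gave an interaction of 9.76 ± 0.99 for IPS1 (edgeR adjusted p = 0.000323), 5.20 ± 0.33 for AT4 (3.85e-05) and -3.43 ± 0.52 for PHO2 (0.00244). MIR399D was called as well (adjusted p = 0.0359), although its reads were 0 in 1 group of each organ and its fitted value is no measure of size. All 4 members tested were called, beside 13.4% of genes.

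With leaf groups by file name, the same interaction was -2.54 ± 1.07 for IPS1 (adjusted p = 0.282), -3.45 ± 0.32 for AT4 (0.000889) and -2.33 ± 0.51 for PHO2 (0.0497). The sign turned for both mimics, while PHO2 kept its sign and its call; by file name 1.61% of genes were called. Under the file names, then, the KO difference of AT4 was smaller in roots than in leaves and the KO difference of PHO2 was the more negative in roots.

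The other interactions by label followed the same split. EXS32 against Compl gave 5.90 ± 0.84 for IPS1, 1.64 ± 0.30 for AT4 and -2.76 ± 0.52 for PHO2, 3 calls of 4 tested members beside 16.3% of genes. By file name it gave -0.91 ± 1.12, -3.35 ± 0.32 and -1.34 ± 0.51, with AT4 called (edgeR adjusted p = 0.000238) beside 8.26% of genes. EXS34 against Compl gave 2.42 ± 0.79, 0.19 ± 0.30 and -2.03 ± 0.51 by label, with PHO2 called (adjusted p = 0.0403) beside 6.34% of genes, and 0.73 ± 1.21, -2.38 ± 0.32 and -0.58 ± 0.51 by file name, with AT4 called (adjusted p = 0.009) beside 0.871% of genes. The PHO2 call by label held in 6 of 21 alternatives: it was lost with no filter (edgeR adjusted p = 0.0725) and without any 1 of 13 of the 16 libraries, among them all 8 of the other genotypes (0.0527 to 0.0623).

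EXS32 against KO gave 1 call by label, AT4 at -3.56 ± 0.32, beside 1.55% of genes. EXS34 against KO gave 2, IPS1 at -7.34 ± 0.93 and AT4 at -5.00 ± 0.33, beside 1.74%. EXS34 against EXS32 gave 2, IPS1 at -3.48 ± 0.75 and AT4 at -1.44 ± 0.30, beside 6.78%. Of these last calls, that of IPS1 was lost with no filter (edgeR adjusted p = 0.0504), and both were lost without replicate 1 of the leaf group labelled EXS32 (0.0829 for IPS1, 0.0707 for AT4), replicate 1 of the leaf group labelled EXS34 (0.0854 and 0.0803) or root EXS32 replicate 2 (0.0743 and 0.0614). The IPS1 call was also lost without replicate 2 of the leaf group labelled EXS32 (0.0544). By file name no member was called by edgeR in these 3 interactions, beside 2.55%, 0.0609% and 1.64% of genes. DESeq2 was not run with the file names. At an unadjusted p under 0.05 stood IPS1 in EXS32 against KO (0.0417), all 3 members in EXS34 against KO (0.00105, 0.00406 and 0.00555 for IPS1, AT4 and PHO2) and AT4 in EXS34 against EXS32 (0.00739).

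**Figure D5:**
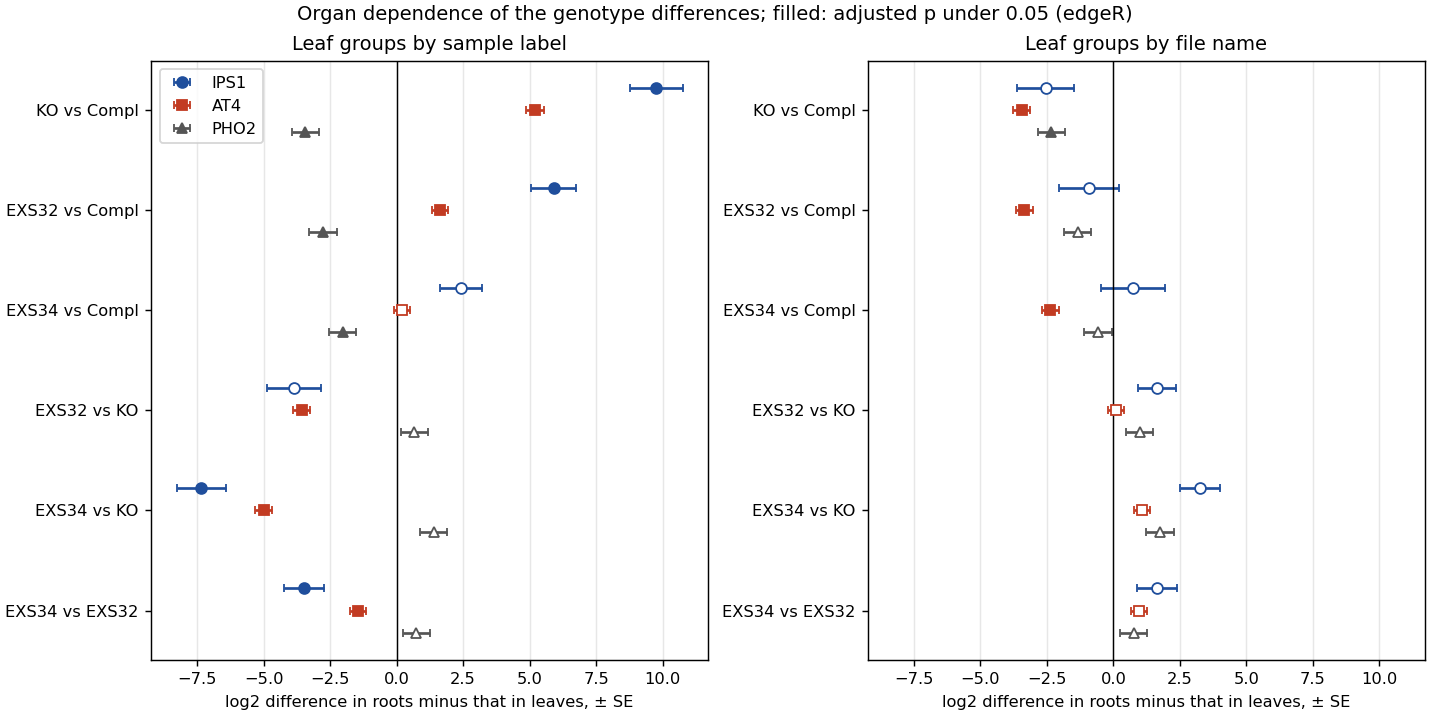
Interaction of organ and genotype, as the log2 difference in roots minus that in leaves (± SE), with leaf groups taken by sample label (left) or by file name (right); filled symbols have an edgeR adjusted p under 0.05. For KO against Compl the IPS1 value moves from 9.76 to -2.54 and the AT4 value from 5.20 to -3.45, while PHO2 stays below 0 in both.

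The pathway around the members was taken as a list of 28 genes: regulators, the miR827 target NLA, transporters, the enzymes that make and use microRNAs, and the MIR399 loci that are no members. In roots 23 of them were tested. Between KO and Compl 1 rose and 2 fell, where 0.884% of all genes were called, with a list median of -0.00 against -0.01 over all genes. SPX1, which encodes a phosphate-dependent inhibitor of PHR1, was higher in KO, at 94.2 and 139 CPM against 44.3 and 31.6 CPM in Compl (log2 fold change 1.61 ± 0.23, edgeR adjusted p = 0.0435). The transporter gene PHT1;8 was lower in KO, at 0.722 and 0.587 CPM against 8.92 and 7.55 CPM (-3.66 ± 0.47, adjusted p = 0.0326), and PHT1;3 fell by 0.91 on the log2 scale (SE 0.13, adjusted p = 0.0435).

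Between root EXS32 and Compl 3 pathway genes rose and 3 fell, where 12.4% of all genes were called (list median 0.10, all genes -0.02). Those that rose were SPX1 (0.98 ± 0.23, edgeR adjusted p = 0.0352), its relative SPX3 (3.01 ± 0.69, adjusted p = 0.0352) and NLA (1.02 ± 0.16, adjusted p = 0.0115). Those that fell were PHT1;8 (-3.75 ± 0.48), PHT1;3 (-0.59 ± 0.13) and PHF1 (-0.44 ± 0.10), which helps PHT1 transporters leave the endoplasmic reticulum. No pathway gene was called in the other 4 root pairs by edgeR.

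In leaves 19 of the 28 were tested, and most calls were in pairs with the group labelled EXS34 (named pho1-4). Against the group labelled Compl (named EXS32) 8 rose and 3 fell (list median 0.03, all genes 0.00), against that labelled KO (named Compl) 7 rose and none fell (0.05 and 0.02), and against that labelled EXS32 (named EXS34) 6 rose and none fell (0.26 and 0.01). The shares of all genes called in these pairs were 18.3%, 6.41% and 5.69%. SPX1 was at 385 and 194 CPM in this group, against 14.0 to 40.9 CPM in the other 6 leaf libraries, and rose against each of the 3 groups by 3.17 to 4.26 on the log2 scale. SPX3 was at 47.9 and 18.8 CPM, against 0.397 to 2.83 CPM, and rose by 4.02 to 5.72.

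SPX2 and PHF1 also rose in this group against each of the others, by 1.59 to 1.98 and by 1.42 to 2.11. Among the transporter genes, PHT1;9 rose by 4.77 ± 0.91 against the group labelled KO (edgeR adjusted p = 0.0189), from 0.0794 and 0.0874 CPM to 3.96 and 1.09 CPM. PHT1;4 rose by 2.87 ± 0.44 in the same pair (adjusted p = 0.0235). The 3 genes that fell against the group labelled Compl were NLA (-1.33 ± 0.18, edgeR adjusted p = 0.00159), PHO1 (-0.78 ± 0.21, 0.0394) and AGO1 (-0.38 ± 0.09, 0.0202), whose protein carries microRNAs.

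The other leaf pairs held few pathway calls. Between the groups labelled KO (named Compl) and Compl (named EXS32) 1 rose and 2 fell, beside 21.1% of all genes called (list median -0.13, all genes -0.02): HEN1, which methylates microRNAs, rose by 0.44 ± 0.14, and AGO1 (-0.33 ± 0.09) and NLA (-1.33 ± 0.17, edgeR adjusted p = 0.000908) fell. Between the groups labelled EXS32 (named EXS34) and Compl (named EXS32) 2 fell, NLA (-0.74 ± 0.17) and PHR1 (-0.40 ± 0.09), beside 14.8% of all genes, with a list median of -0.22 against -0.01. Between the groups labelled EXS32 and KO none was called by edgeR, beside 5.93% of all genes.

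NLA, the target of miR827, differed between root genotypes whose MIR827 reads overlapped. Root KO had 55.6 and 41.9 CPM of NLA and root Compl 32.9 and 40.2 CPM. Root EXS32 had 69.4 and 79.7 CPM, above all other root libraries, and root EXS34 had 45.4 and 46.5 CPM. In leaves it was at 19.9 and 24.5 CPM in the group labelled Compl (named EXS32), above the 7.92 to 14.2 CPM of the other leaf libraries. NLA was higher in roots than in leaves by 2.02 ± 0.09 (edgeR adjusted p = 1.48e-10), the same direction as MIR827. NLA overlaps AT1G02870 on the opposite strand by 49 bases, so its counts are less certain than those of the members.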

How the data were processed

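The authors deposited whole-number read counts per gene, 1 file per library, from stranded mRNA libraries per the labels' protocols. Per the submitters' processing notes the TAIR10 build was used, with HTSeq 0.5.4p3, TopHat2 2.0.9, cutadapt 1.2.1, limma, edgeR and R 3.1.1; their roles, strand setting and treatment of multiply mapped reads are not stated in the sources used here. Lines that name no gene (8.57 to 10.3% in root libraries, 7.26 to 7.77% in leaf libraries) were left out.

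Groups follow the sample labels; file names of leaf libraries are an alternative. Within groups, the chi-square between libraries over its degrees of freedom was 4.3 to 40.5, above counting error, and each library counted as 1 replicate. Counts were fitted with edgeR 4.0.16 under R 4.3.3, after filterByExpr at its defaults of 10 reads (total 15) and with TMM, by the robust quasi-likelihood fit and test, per organ (8 libraries) for genotype pairs and over 16 libraries for organ and interactions, with Benjamini-Hochberg adjustment over all genes and a threshold of 0.05. Standard errors are the log2 fold change over the square root of F. The procedure was tested on simulated data. Alternatives were DESeq2 1.42.0 and its size factors, no filter, only the groups compared, a replicate block, leaf file names and leaving out each library; library size alone was added after seeing the data. The members and gene lists were chosen with earlier results of these data known. Named were all 6 members and, per comparison, at most 6 called pathway genes with the lowest adjusted p; PHO1, HEN1 in leaves and the per-group ranges of SPX1, SPX2, SPX3, PHF1 and NLA complete the account. Genes of like pattern were the 5 with the highest Pearson r of log2 CPM (prior count 2) over 8 libraries of an organ among genes whose mean reached 5 CPM. Of the 32678 loci, 31912 matched the annotation. Figures were drawn with matplotlib 3.10.9.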

Additional observations from a re-analysis of the deposited data

Results flagged for a closer look

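The following 12 differences between organs passed the test of the interaction itself (edgeR, leaf groups by label), given as the log2 genotype difference in roots minus that in leaves. For KO against Compl they were 9.76 for IPS1, 5.20 for AT4 and -3.43 for PHO2. For EXS32 against Compl they were 5.90 for IPS1, 1.64 for AT4 and -2.76 for PHO2, and for EXS34 against Compl -2.03 for PHO2. For EXS32 against KO the AT4 value was -3.56. For EXS34 against KO the values were -7.34 for IPS1 and -5.00 for AT4, and for EXS34 against EXS32 they were -3.48 and -1.44. By file name 9 of the 12 changed sign, and of the other 3, all of PHO2, the value for KO against Compl was called, at -2.33. The PHO2 value for EXS34 against Compl was called in 6 of 21 alternatives, and those for EXS34 against EXS32 in 15 (IPS1) and 17 (AT4) of 21. The others kept their sign and call in 20 or 21 of 21, the exception being the file names. By file name AT4 was called with the opposite sign for KO against Compl (-3.45) and EXS32 against Compl (-3.35).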

How the results depend on the processing

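Among IPS1, AT4 and PHO2, the 18 root tests gave 3 calls, 8 under DESeq2 and 0 to 4 when 1 library was left out, with 0 without EXS32 replicate 1 or replicate 2. The 18 leaf tests gave 13 calls, and 9 to 16 with 1 library left out. The 3 organ tests gave 2 calls, 1 with no filter and 1 to 2 with 1 library left out. The 18 interactions gave 12 calls, 9 to 14 with 1 library left out, and 4 by file name. With leaf groups by file name these interactions turned sign: IPS1 -2.54 and AT4 -3.45 (KO against Compl), IPS1 -0.91 and AT4 -3.35 (EXS32 against Compl), AT4 -2.38 (EXS34 against Compl), IPS1 1.63 and AT4 0.10 (EXS32 against KO), IPS1 3.27 and AT4 1.07 (EXS34 against KO), and IPS1 1.64 and AT4 0.98 (EXS34 against EXS32). This follows from the other assignment of the leaf groups. With 1 library left out, uncalled differences that turned sign ranged in roots from -0.11 to 0.33 (PHO2), and from -0.58 to 0.13 (IPS1), for EXS32 against KO, from -1.19 to 0.33 for IPS1 in EXS34 against KO, and from -0.93 to 0.60 (IPS1) and -0.12 to 0.18 (AT4) for EXS34 against EXS32. In leaves PHO2 in EXS34 against KO ranged from -0.43 to 0.14, and the interactions of AT4 in EXS34 against Compl from -0.03 to 0.36 and of PHO2 in EXS34 against EXS32 from -0.12 to 1.26. Deviations of same-numbered libraries correlated at -0.25 to 0.22 in roots and 0.04 to 0.33 in leaves, so the numbers were not taken as pairs. Each pair of groups gives 1 such value. Those of leaves were all above 0, a hint from the data only. With the replicate block the calls were 3, 12, 2 and 12 for roots, leaves, organ and interactions, IPS1 in root KO against Compl had an edgeR adjusted p of 0.0606, and IPS1 in root EXS34 against EXS32 was -0.06. Over all genes, the count called moved by over 1.5 times in at least 1 alternative for every comparison except the organ difference, for instance from 182 to between 0 and 1427 for root KO against Compl and from 3910 to between 1489 and 5719 for the leaf groups labelled KO and Compl. Apart from the file names and the left-out libraries, the causes were not tested. The 3 precursors did not pass the filter on low counts in either organ.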

Other observations

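Genes with the pattern most like each abundant member were sought over the 8 libraries of an organ, as a description without a test; the libraries fall into 4 groups, so a high r mostly reflects an order of groups. In leaves, AT4 was among the 5 genes most like IPS1 and IPS1 among the 5 most like AT4, out of 14462 genes (Pearson r = 0.974). The genes ahead of AT4 on the IPS1 list were OCT4 (0.990), AT2G22080 (0.990), AT1G24575 (0.982) and AT4G31430 (0.982). In roots the nearest to IPS1 were AT1G01100 (0.987), ARV1 (0.985), RDR6 (0.984), AT5G20790 (0.981) and AT1G23110 (0.980), out of 16031 genes. The nearest to AT4 in roots was AT3G13510 (0.973), and the nearest to PHO2 was AT5G02640 in roots (0.988) and AT5G43190 in leaves (0.984).

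Over all genotypes, 14 of the 23 tested pathway genes were higher in roots and 5 higher in leaves, beside 81.6% of all genes called. PHT1;3 was higher in roots by 8.93 ± 0.22, PHO1 by 4.34 ± 0.14, and SPX4, which encodes another SPX inhibitor of PHR1, by 1.49 ± 0.09 on the log2 scale. PHT1;1 (6.57 ± 0.28) and PHT1;2 (8.15 ± 0.29) are near-identical copies whose reads could be split, so their values are uncertain.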
